A study of Rattus norvegicus with 7 samples.

Results

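Collagen genes were taken as every gene symbol built from Col, a type number, the letter a and a chain number, and 27 of the 17147 genes measured had that form. By type, 10 were fibrillar collagens (types 1, 2, 3, 5, 11 and 27), 4 were network-forming collagens (types 4 and 8) and 13 belonged to other types, which include fibril-associated, beaded-filament, transmembrane and basement membrane collagens. The cells were rMSCs, mesenchymal stem cells from the bone marrow of 1 male Sprague-Dawley rat aged 6 weeks, and 20000 of them were seeded on each surface and collected for polyadenylated RNA sequencing 4 h later. The 7 libraries came from 3 ISB-P films, 3 PCL films and 1 culture on TCP. ISB-P is a polycaprolactone-based polyurethane made with propoxylated isosorbide, PCL is plain polycaprolactone, and TCP is tissue culture plastic with no film. Both films were 16 mm in diameter and had been sterilised with ethylene oxide gas, and all cells grew in the same medium with 10% serum. The labels number the libraries of each film 1, 2 and 3 and do not say that they came from separate cultures or animals, so p-values measure only the spread between these libraries, which may be technical.

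Collagens are the main structural proteins of the extracellular matrix. Their chains are made in the endoplasmic reticulum, where prolyl and lysyl residues are hydroxylated and the chains wind around each other into helices with the help of dedicated chaperones, and after secretion the helices are trimmed and cross-linked. Mesenchymal stem cells on plastic are known to make large amounts of the fibrillar types, and they sense collagen through integrins and discoidin domain receptors.

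Levels are given in FPKM, fragments scaled by transcript length and by the size of the library, so that levels of different genes can be compared per length, and the number of reads behind them is unknown. The sums over all genes ranged from 539393 to 660124 FPKM and 4537 to 5105 genes were listed at 0 in a library. A value of 0 can be a failed estimate: of 8 genes that every cell uses, 1 (Hprt1) was also listed at 0 in all 7 libraries. All 7 markers of mesenchymal stem cells, such as Thy1 and Cd44, were at 1 FPKM or more in every library, and the 4 endothelial markers were under 1 FPKM in every library. Of the 6 blood-cell markers found, 3 were at 1 FPKM or more in every library and Cd34 was listed at 0 in all 7. In bulk RNA, fewer cells of a type and less RNA per cell cannot be told apart.

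Of the 27 collagen genes, 16 were at 1 FPKM or higher in 3 or more film libraries and were tested, 8 of them fibrillar, 2 network-forming and 6 of other types. The remaining 11 did not pass this limit. Col1a2, which encodes the partner chain of Col1a1 in type I collagen, was listed at 0 in all 7 libraries. Col7a1, the anchoring fibril collagen, was highest among the other 10 at 1.32 FPKM on TCP and lay between 0.71 and 1.1 FPKM on the films. Col17a1, a transmembrane collagen of epithelia, lay between 0.646 and 0.885 FPKM. Col11a2 reached 0.597 FPKM, Col23a1 0.297 FPKM and Col9a2 0.198 FPKM, each in the TCP library. The highest values of Col13a1, Col4a3, Col26a1, Col4a4 and Col6a4 were all under 0.1 FPKM. Of the subunit partners, Col4a2, Col6a1 and Col6a3 were not analysed here.

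The upstream sequences of Col5a1 and Col5a2 are shown because these type V chains assemble into one protein and Col5a1, but not Col5a2, was called by library number, as described later. They are the 250 bases before the gene start in RefSeq, build GRCr8, read 5′ to 3′ on the strand of the gene. Capitals mark GGGCGG, the letters of a GC box, searched on both strands.
Col5a1, chr3:31606630-31606879, plus strand: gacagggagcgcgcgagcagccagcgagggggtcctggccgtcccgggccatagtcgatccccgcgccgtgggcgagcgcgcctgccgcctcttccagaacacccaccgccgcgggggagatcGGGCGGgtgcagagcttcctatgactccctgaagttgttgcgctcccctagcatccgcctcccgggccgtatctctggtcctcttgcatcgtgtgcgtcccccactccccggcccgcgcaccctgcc
Col5a2, chr9:55090152-55090401, minus strand: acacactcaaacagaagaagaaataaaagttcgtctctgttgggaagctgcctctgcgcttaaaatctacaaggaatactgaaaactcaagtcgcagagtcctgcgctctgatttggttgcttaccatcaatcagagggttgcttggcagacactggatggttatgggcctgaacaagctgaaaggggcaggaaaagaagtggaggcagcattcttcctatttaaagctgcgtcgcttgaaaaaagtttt
The Col5a1 stretch held 71.6% G and C and 1 match, which began 127 bases before the gene start. The Col5a2 stretch held 44.8% G and C and no match in this window. At least 1 match was held by 61.5% of the 7207 tested genes with a promoter and by 30.5% of all 33469 promoters in the table.

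Type I and type III collagen were the most abundant collagen mRNAs on every surface. Col1a1, the main chain of the type I fibrils of bone, tendon and skin, stood at 10406 FPKM on TCP, at 6058, 5439 and 4609.9 FPKM in PCL libraries 1, 2 and 3, and at 6009.9, 4928 and 3868 FPKM in ISB-P libraries 1, 2 and 3. The TCP library lay above all 6 film libraries and the films overlapped, with the number 3 library lowest on both. Col3a1, whose type III chains form thinner fibrils beside type I, stood at 5132 FPKM on TCP, at 2916, 2423 and 2472 FPKM on PCL and at 2975, 2444 and 2241 FPKM on ISB-P (in the order of the library numbers, here and in all lists that follow). TCP again lay above both films, which overlapped. Col1a1 alone made up 45.2% to 52.8% of the summed collagen FPKM of a library, and Col1a1 and Col3a1 together 71.5% to 78.8%. This sum holds Col1a2 at 0 and no values for Col4a2, Col6a1 and Col6a3. The shares are thus of the collagen genes analysed only.

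Among all genes in a library, Col1a1 ranked first on TCP and in PCL library 2, and its rank was lowest in ISB-P library 3, at 9. The share of the summed FPKM that fell on the 27 collagen genes was 3.65% on TCP, 2.2%, 1.86% and 1.63% on PCL and 2.04%, 1.68% and 1.30% on ISB-P. Every film library was below TCP, and the films overlapped. The mean share was 1.90% ± 0.284 (SD, n = 3) on PCL and 1.67% ± 0.373 (SD, n = 3) on ISB-P, a ratio of 0.881 that ran from 0.784 to 0.981 when single libraries were left out.

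**Figure D1:**
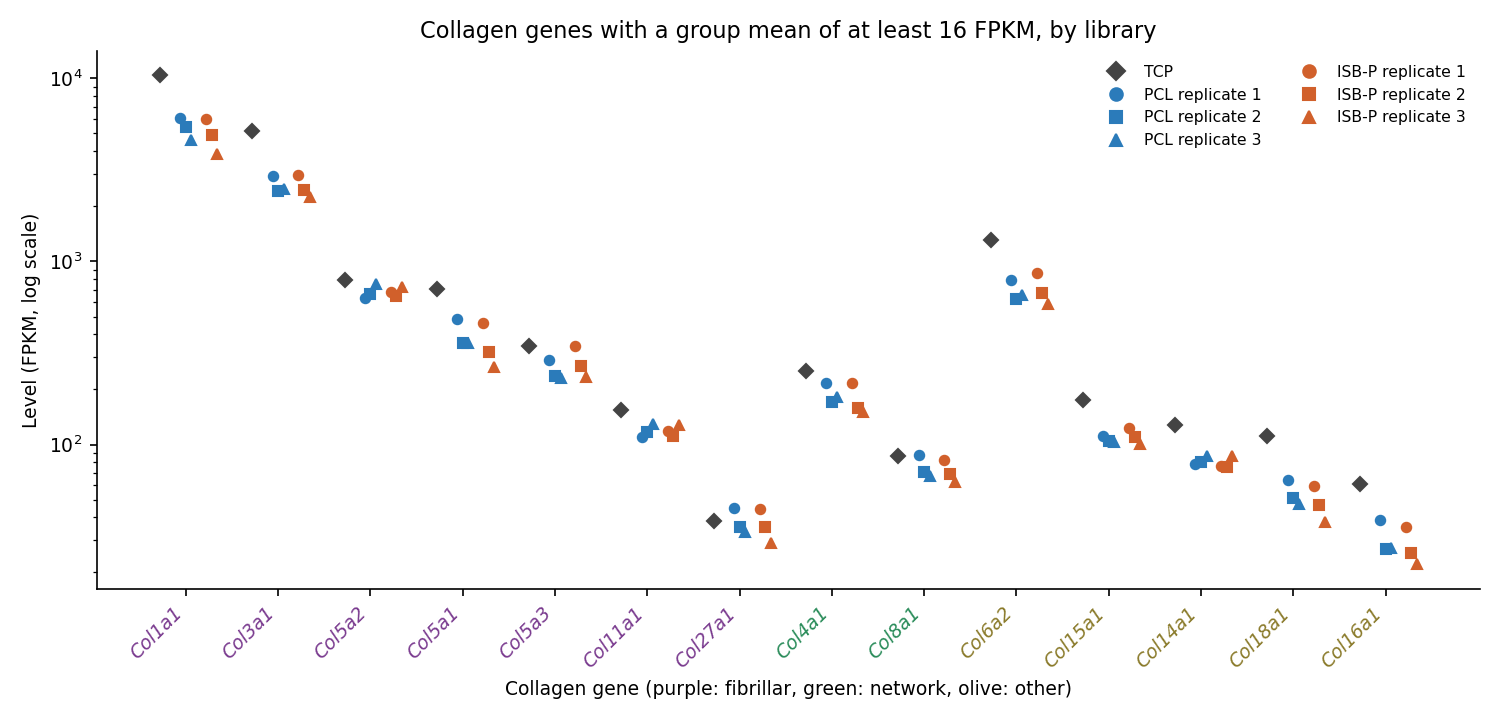
Levels of the 14 collagen genes whose mean reached 16 FPKM in a group, in FPKM on a log axis, with 1 point per library (diamond TCP, blue PCL, orange ISB-P; circle, square and triangle for library numbers 1, 2 and 3). Col1a1 spans 3868 to 10406 FPKM and Col16a1 22.1 to 61.2 FPKM, and most triangles lie under the circles of the same colour.

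Type V chains, which set the diameter of type I fibrils, came next among the fibrillar genes. Col5a2 was at 794 FPKM on TCP, at 634, 663 and 749 FPKM on PCL and at 678, 649.5 and 728 FPKM on ISB-P. Col5a1 was at 706 FPKM on TCP, at 484, 359 and 358 FPKM on PCL and at 461, 319 and 265 FPKM on ISB-P. In both films the number 3 library was the highest for Col5a2 and the lowest for Col5a1, and both genes were highest on TCP. The ratio of the Col5a1 level to the Col5a2 level was 0.89 on TCP, 0.763, 0.542 and 0.479 on PCL and 0.68, 0.492 and 0.364 on ISB-P. Col5a3, the third type V chain, was at 347 FPKM on TCP, 291, 237 and 230.2 FPKM on PCL and 345, 267 and 233 FPKM on ISB-P. For Col5a3 the TCP library and ISB-P library 1 lay close together above the rest.

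The less abundant fibrillar genes did not share one order of libraries. Col11a1, a minor fibrillar chain best known from cartilage, was at 154 FPKM on TCP, 109.8, 116 and 130.2 FPKM on PCL and 118, 112 and 127 FPKM on ISB-P. Its TCP value was the highest and the films overlapped. Col27a1, another cartilage fibril collagen, was at 38.3 FPKM on TCP, 44.9, 35.3 and 33.2 FPKM on PCL and 44.4, 35.4 and 28.9 FPKM on ISB-P. Here TCP fell within the range of the films. Col2a1, the main cartilage collagen, was at 1.82 FPKM on TCP, 1.75, 1.1 and 1.19 FPKM on PCL and 1.75, 1.05 and 0.993 FPKM on ISB-P. These low values were close to the limit for testing.

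Among the network-forming genes, Col4a1, a chain of the basement membrane collagen, was at 253 FPKM on TCP, 216, 169.7 and 182 FPKM on PCL and 217, 159 and 151 FPKM on ISB-P. Col8a1, a short-chain collagen of vessel walls and cornea, was at 86.3 FPKM on TCP, 88.1, 70.8 and 67 FPKM on PCL and 82, 69.1 and 62 FPKM on ISB-P. Both were highest on each film in library 1, and TCP was above every film library for Col4a1 and within the film range for Col8a1. Of the other types, Col6a2, a chain of the beaded filaments around cells, was by far the most abundant, at 1309 FPKM on TCP, 788, 623 and 659.8 FPKM on PCL and 867, 672 and 587 FPKM on ISB-P. Its films overlapped and lay below TCP.

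Col15a1 and Col18a1 encode the basement membrane collagens whose ends can be released as endostatin-like fragments. Col15a1 was at 175 FPKM on TCP, 111, 105 and 103 FPKM on PCL and 124, 110.4 and 101 FPKM on ISB-P. Col18a1 was at 111 FPKM on TCP, 64.1, 51.1 and 47.3 FPKM on PCL and 59.2, 46.6 and 37.7 FPKM on ISB-P. In both genes every film library was below TCP. Col14a1 and Col16a1 encode collagens that attach to the surface of fibrils. Col14a1 was at 127 FPKM on TCP, 78, 79.8 and 86.6 FPKM on PCL and 76.6, 75.4 and 86.9 FPKM on ISB-P, with the number 3 library highest on each film. Col16a1 was at 61.2 FPKM on TCP, 38.5, 26.9 and 27.3 FPKM on PCL and 35.4, 25.6 and 22.1 FPKM on ISB-P, with the number 1 library highest on each film. Col9a1, a fibril-associated cartilage collagen, ran from 5.67 FPKM on TCP to 7.28 FPKM in PCL library 3, with TCP the lowest of the 7 libraries.

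The film comparison asked how the collagen genes differed between ISB-P and PCL. No collagen gene was called in limma on log2(FPKM + 1) with Benjamini-Hochberg adjustment over 9467 genes. An adjusted p under 0.05 was reached by 0 of 16, beside 1.72% of all genes. An unadjusted p under 0.05 was also reached by 0 of 16, beside 1145 of the 9467 genes. Adjusted p-values ran from 0.874 to 0.995. In 0 of 16 genes were the films without overlap, which was the case for 17.7% of all genes tested. The differences, ISB-P minus PCL, ran from -0.22 for Col5a1 to 0.15 for Col5a3 on the log2(FPKM + 1) scale, on which the change of a low gene comes out too small. All 95% intervals lay between -0.77 and 0.58, and a 2-fold change is 1 on this scale for abundant genes only. For Col2a1, at 1.27 FPKM on ISB-P and 1.34 FPKM on PCL, a halving would be much smaller than 1, and its interval ran from -0.46 to 0.35.

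Col5a1 averaged 348 ± 101 FPKM on ISB-P and 400.3 ± 72.3 FPKM on PCL (SD, n = 3 each), a difference of -0.22 (95% interval -0.77 to 0.33; limma adjusted p = 0.874). Col18a1 averaged 47.8 ± 10.8 and 54.2 ± 8.81 FPKM in the same order, a difference of -0.19 (95% interval -0.67 to 0.30). Col16a1 averaged 27.7 ± 6.91 and 30.9 ± 6.57 FPKM, a difference of -0.16 (95% interval -0.69 to 0.37). These 3 genes were the lowest of the 16. At the other end, Col5a3 averaged 282 ± 57.2 FPKM on ISB-P and 253 ± 33.4 FPKM on PCL, a difference of 0.15 (95% interval -0.28 to 0.58). Col1a1 averaged 4936 ± 1071 and 5369 ± 727 FPKM, and Col3a1 2553 ± 379 and 2604 ± 272 FPKM. In each of these genes the difference between the means was smaller than the SD within either film.

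The median difference was -0.04 over the 16 collagen genes, with 10 below 0 and 6 above 0, and 0.02 over all genes tested. By class it was -0.04 for the fibrillar genes, -0.10 for the network-forming genes and -0.0093 for the other types. Under quantile normalization the collagen median moved to -0.13, beside -0.02 over all genes tested. With all libraries scaled to a common total it moved to -0.15, beside -0.09 over all genes.

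**Figure D2:**
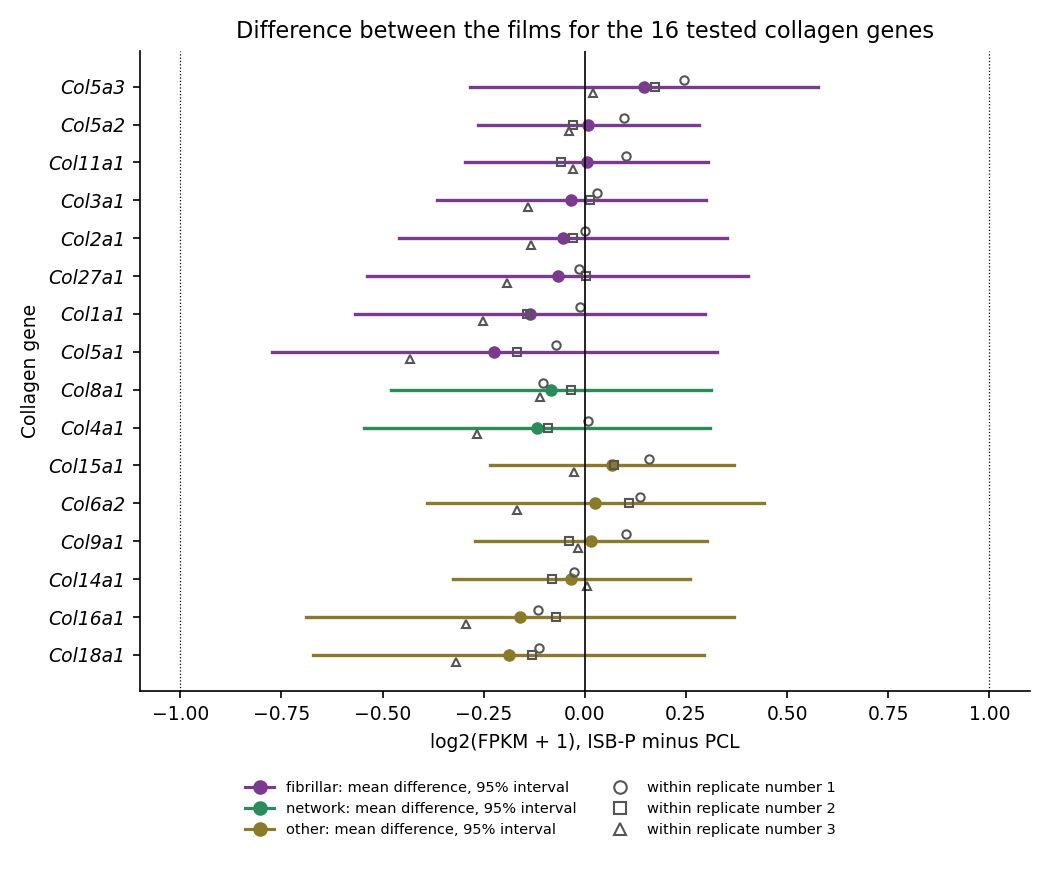
Difference in log2(FPKM + 1), ISB-P minus PCL, for the 16 tested collagen genes: filled points are means with 95% intervals from limma (n = 3 per film), open symbols the differences within each library number, and dotted lines 2-fold. Every interval crosses 0, and the triangles (number 3) lie left of 0 for 14 of 16 genes.

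Libraries with the same number resembled each other across the films, and with the number as a block the spread left in the fit was smaller. The block called 24.4% of all genes between the films and still 0 of 16 collagen genes. Col5a1 was the nearest, at an adjusted p of 0.0733 in limma. An unadjusted p under 0.05 in that fit was held by 2 of 16 collagen genes, beside 3626 of the 9467 genes tested. With the block and another scaling of the libraries, alternatives added after the data were seen, 5 of 16 collagen genes were lower on ISB-P when libraries were scaled to a common total, beside 22.3% of all genes called lower. It was 2 of 16 under quantile normalization, beside 12.8%, and 2 of 16 under upper quartile scaling, beside 16.5%. None was higher, beside 7.54%, 11.5% and 8.68% in the same order, so the shares of collagen genes called, in either direction, were near or under those of all genes (29.9%, 24.3% and 25.1%). Col5a1 and Col18a1 were called under each of the 3 scalings, and Col1a1, Col4a1 and Col16a1 under the common total only. With the block, values as deposited and no number 3 libraries, Col5a3 was the one collagen gene called, as higher, beside 33.1% of all genes called.

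Within library number 1, the ISB-P library was below the PCL library in 7 of 16 collagen genes, with a median log2 difference of 0.0044, beside 42.8% of all genes tested and a median of 0.04. Within number 2 it was below in 11 of 16, with a median of -0.04, beside 53.7% of all genes and a median of -0.02. Within number 3 it was below in 14 of 16, with a median of -0.14, beside 48.6% of all genes and a median of 0.01. The exceptions in number 3 were Col5a3 and Col14a1, at 0.02 and 0.0052. The gap for Col5a1 was -0.07, -0.17 and -0.43 in numbers 1, 2 and 3. With 1 library of each film per number these gaps cannot be tested, and no order among the numbers is given by the labels.

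By library number, most of the tested collagen genes differed. The number was tested in limma with the film in the model, by an F test of the number terms, and differences are given as number 3 minus number 1. Of the 16 genes, 11 were called at an adjusted p under 0.05, and all 11 were lower in number 3. Over all genes tested, 58.4% were called, 21.2% as lower and 37.2% as higher in number 3. The share of collagen genes called was thus near the share of all genes, and no collagen gene was among the higher ones. The median was -0.40 over the 16 collagen genes and 0.09 over all genes tested. Both films placed number 3 below number 1 in 12 of the collagen genes, as they did for 37% of all genes.

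This split of all genes depended on the scaling. It was 3524 higher and 2003 lower as deposited, 2805 higher and 2911 lower with a common total, 2753 and 3020 under quantile normalization, and 2423 and 3344 under upper quartile scaling. The median of all genes moved from 0.09 to -0.03, -0.04 and -0.10 in the same order. Under each of these scalings 12 collagen genes were called lower and none higher, Col15a1 being the one added.

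Of the 8 fibrillar genes tested, 6 were lower in number 3. Col5a1 had the largest difference, at -0.61 ± 0.10 (SE; limma adjusted p = 0.0021), which is 1.53-fold on the log2(FPKM + 1) scale. The levels behind it were 484 and 358 FPKM on PCL and 461 and 265 FPKM on ISB-P in numbers 1 and 3, with no overlap between the numbers. Col1a1 stood at -0.51 (adjusted p = 0.0022) and so did Col27a1 (adjusted p = 0.0046). Col5a3 differed by -0.45, Col2a1 by -0.40 and Col3a1 by -0.32. Col5a2 and Col11a1 were not called and stood at 0.17 and 0.18, with limma adjusted p-values of 0.123 and 0.144.

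Both network-forming genes were lower in number 3, Col8a1 at -0.39 and Col4a1 at -0.38 (limma adjusted p of 0.0086 and 0.0080). Of the 6 genes of other types, 3 were lower: Col16a1 at -0.57, Col18a1 at -0.53 and Col6a2 at -0.41. The other 3 were not called, with Col15a1 at -0.20, Col14a1 at 0.16 and Col9a1 at 0.09. The 4 genes that stood above 0, Col5a2, Col11a1, Col14a1 and Col9a1, each changed sign under at least 1 of the scalings, so no direction is given for them. Across the 16 genes, the difference on PCL and the difference on ISB-P had a Pearson r of 0.959, a description over genes measured in the same 4 libraries, which are not independent replicates.

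**Figure D3:**
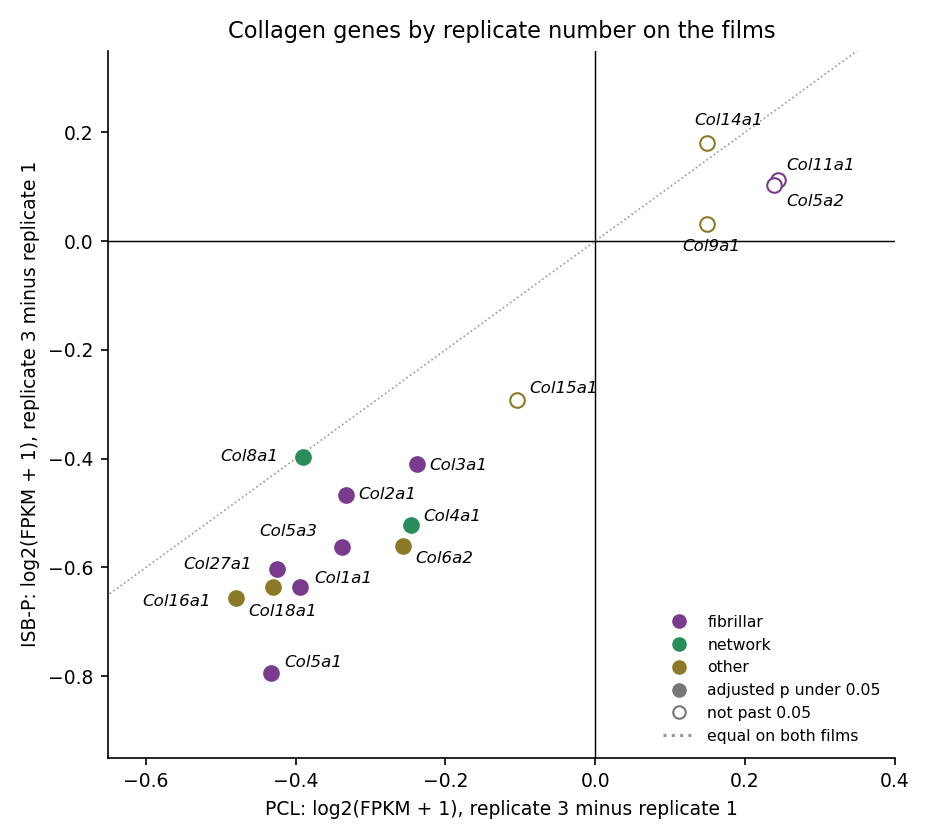
Difference in log2(FPKM + 1) between libraries 3 and 1 on PCL (x axis) and on ISB-P (y axis), 1 point per tested collagen gene, coloured by class and filled where the library number was called in limma. The 11 filled points lie below 0 on both axes, and Col5a1 is lowest on ISB-P at -0.79.

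Among the fits with 1 library left out, the count depended most on ISB-P library 1. Without it, 3 collagen genes were called by number, Col1a1, Col5a1 and Col16a1, all lower, beside 41.1% of all genes called, 11% as lower. With any other single library left out, 9 to 13 collagen genes and 47.3% to 73.7% of all genes were called, among them as higher Col14a1 without PCL library 3 and Col5a2 and Col11a1 without ISB-P library 3. Without the film term in the model 0 of 16 were called, beside 17.2% of all genes called. In that limma fit 11 of 16 had an unadjusted p under 0.05, beside 3644 of the 9467 genes tested.

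Promoter sequences were found for 11 of the 16 tested genes and not for Col1a1, Col2a1, Col3a1, Col6a2 and Col14a1. GGGCGG occurred in the 250 bases before the start of 7 of the 7 genes lower in number 3, Col4a1, Col5a1, Col5a3, Col8a1, Col16a1, Col18a1 and Col27a1, and in 1 of the 4 that were not called, Col11a1. Among all tested genes with a promoter it occurred in 66.2% of those lower in number 3, 60.5% of those higher and 60.0% of those not called. The median content of G and C was 68.8% in the 7 genes and 50.4% in the 4, beside 61.6% in all tested genes that were lower. CCAAT was found in 2 of the 7 and 1 of the 4, and in 35.9% of all tested genes with a promoter. TATAAA was found in 0 of the 11, in 6.04% of all tested genes with a promoter and in 12.9% of all promoters in the table. In GRCr8, Col3a1 and Col5a2 are direct neighbours among protein-coding genes. Their values by number were -0.32 for Col3a1 (called) and 0.17 for Col5a2 (not called), and the gap between the genes was not tested.

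TCP was represented by 1 library, so the levels set against it have no replicate check. Collagen genes were higher there: 13 of 16 lay above all 6 film libraries, beside 25.4% of all genes tested. Col9a1 alone lay below all 6, beside 29.7% of all genes, and Col8a1 and Col27a1 lay within the film range. The excess over the mean of the 6 film libraries was over 2-fold for 3 genes, beside 3.17% of all genes: 2.15-fold for Col18a1, 2.05-fold for Col16a1 and 2.02-fold for Col1a1, all on values plus 1. No collagen gene was over 2-fold below the films on TCP (0 of 16), beside 6.86% of all genes. Col3a1 was just inside that limit at 1.99-fold, followed by Col5a1 at 1.88-fold and Col6a2 at 1.87-fold. The median of films minus TCP was -0.56 over the collagen genes and 0.08 over all genes tested. It was -0.37 for the fibrillar genes, -0.35 for the network-forming genes and -0.79 for the other types.

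The number of genes over 2-fold was 6 with a common total, 5 under quantile normalization and 6 under upper quartile scaling. It was 1 without ISB-P library 3 and 5 without PCL library 1. The matching counts over all genes were not taken under these settings. The fit described next averages log values, and its median of films minus TCP over all genes was 0.06 as deposited. It moved to -0.05, -0.03 and -0.09 under these scalings in the same order. The collagen median of that fit moved from -0.57 to -0.70, -0.63 and -0.73. In a limma fit added after the data were seen, in which the single TCP library was assumed to vary like the film libraries, 5 of 16 collagen genes were called lower on the films, beside 5.43% of all genes, and 0 higher, beside 5.54%. The spread of TCP was not measured, so this count is no replicate check of the TCP levels. It was 0 without PCL library 2, 0 without ISB-P library 2, 1 without PCL library 3 and 3 without PCL library 1. The count rose to 6 without ISB-P library 3 and to 7 without ISB-P library 1. Of the 9467 genes tested, 221, 221, 280, 411, 623 and 571 were called lower in the same order.

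Markers of other cell types also stood apart on TCP. The summed level of the 6 blood-cell markers found was 56.6 FPKM on TCP, 22.7 to 25.9 FPKM on PCL and 18.1 to 21.4 FPKM on ISB-P, with 5 of the 6 highest on TCP, among them Cd68 and Csf1r, and with Cd34 listed at 0. The summed level of the 4 adipocyte markers was 82.9 FPKM on TCP, 23.5 to 36.3 FPKM on PCL and 28.1 to 46.1 FPKM on ISB-P, with all 4 highest on TCP. The smooth muscle sum was 919 FPKM on TCP and 659 to 789 FPKM on the films, with 3 of 4 highest on TCP. The osteoblast sum lay within the film range, at 40.8 FPKM on TCP and 38.2 to 45.9 FPKM on the films, but its 5 members differed in direction. Of these, 3 were highest on TCP: Sp7 at 15.6 FPKM against 3.29 to 7.94 FPKM on the films, Alpl at 13.8 against 6.45 to 9.75 FPKM and Ibsp at 0.869 against 0.337 to 0.639 FPKM. Runx2 was below every film library on TCP, at 10.5 against 21.2 to 31.8 FPKM, and Bglap was listed at 0 there and in ISB-P library 1. The chondrocyte sum, at 75.5 FPKM on TCP and 50.4 to 76.7 FPKM on the films, lay within the film range, with 0 of 3 markers found above it. The part of these markers in the collagen result was not tested.

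**Figure D4:**
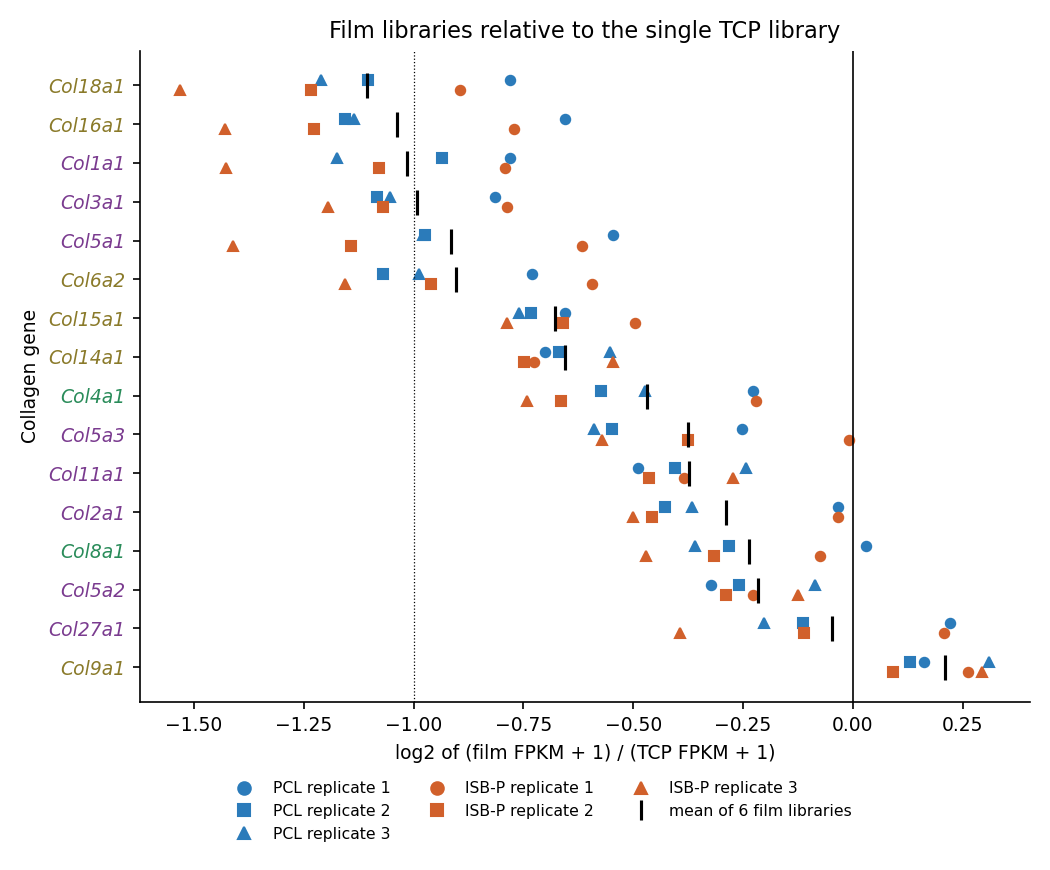
Each film library relative to the single TCP library for the 16 tested collagen genes, as log2 of the ratio of FPKM plus 1, with 1 symbol per library and a black bar for the mean of the 6. The solid line marks the TCP level and the dotted line 2-fold below it. For 13 genes every film library lies left of the solid line, and for Col9a1 every film library lies right of it.

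Genes that modify, fold, export, trim and cross-link collagen were taken from a list of 37, of which 33 were found and 30 passed the limit for testing. Crtap, a partner of the prolyl 3-hydroxylases, was listed at 0 in all 7 libraries. Between the films 0 of 30 were called in limma, with a median difference of -0.04, beside 1.72% of all genes called. In the same fit 0 of 30 had an unadjusted p under 0.05, beside 1145 of the 9467 genes tested. With the library number as a block 6 of 30 were called, 3 higher and 3 lower on ISB-P, beside 24.4% of all genes. The count with the block was 3 without the number 1 libraries, beside 18.7% of all genes, and 11 without the number 3 libraries, beside 33.1%.

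The 3 that were higher were P4ha1, Serpinh1 and Plod2. P4ha1, a catalytic subunit of the prolyl 4-hydroxylase that stabilises the collagen helix, was at 67.6 FPKM on TCP, 59, 72.6 and 87.3 FPKM on PCL and 76.6, 93.5 and 124 FPKM on ISB-P. Serpinh1, the collagen chaperone HSP47, was at 1356 FPKM on TCP, 1027, 906 and 826 FPKM on PCL and 1471, 1182 and 941 FPKM on ISB-P. Plod2, a lysyl hydroxylase, was at 71 FPKM on TCP, 98.4, 145 and 187 FPKM on PCL and 114, 157 and 266 FPKM on ISB-P. In each number the ISB-P library was above the PCL library for all 3 genes, although the films overlapped. The differences with the block were 0.41 ± 0.07 for P4ha1 (SE; limma adjusted p = 0.0039), 0.36 ± 0.07 for Serpinh1 (adjusted p = 0.0090) and 0.27 ± 0.08 for Plod2 (adjusted p = 0.0460). P4ha1 and Serpinh1 were also called higher in each of the 3 fits that joined the block with another scaling, and Plod2 in none of them. Plod2 also lost its call without the number 1 libraries, at an adjusted p of 0.066.

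The 3 that were lower were P4ha3, another prolyl 4-hydroxylase subunit, Loxl1, a cross-linking oxidase, and Creb3l2, a transcription factor of the secretory pathway. P4ha3 was at 109 FPKM on TCP, 102, 85 and 79.8 FPKM on PCL and 93, 74.1 and 60.1 FPKM on ISB-P. Loxl1 was at 151 FPKM on TCP, 121, 103 and 84.7 FPKM on PCL and 110.0, 89 and 57.9 FPKM on ISB-P. Creb3l2 was at 57.4 FPKM on TCP, 37.4, 30.4 and 30.4 FPKM on PCL and 32.3, 25 and 22.5 FPKM on ISB-P. All 3 were lower on ISB-P in every number, by -0.24 ± 0.08 for P4ha3, -0.30 ± 0.09 for Loxl1 and -0.30 ± 0.08 for Creb3l2 (SE; limma adjusted p with the block of 0.0475, 0.0393 and 0.0233). Loxl1 kept its call with any 1 number left out, while P4ha3 and Creb3l2 lost it without number 1 and without number 2.

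**Figure D5:**
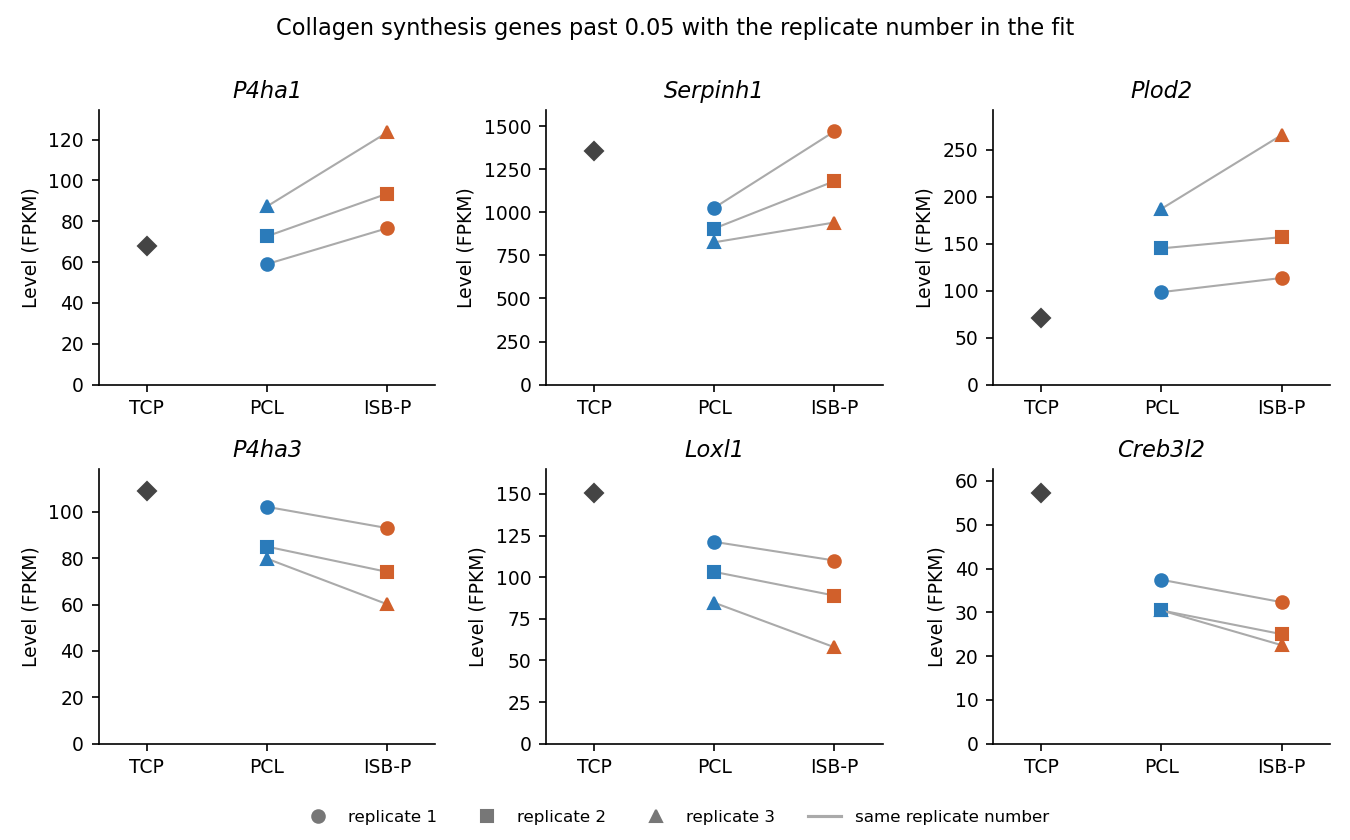
Levels in FPKM of the 6 collagen synthesis genes called between the films with the library number as a block, with grey lines joining the PCL and ISB-P libraries of the same number and a diamond for TCP. All lines run upward for P4ha1, Serpinh1 and Plod2 and downward for P4ha3, Loxl1 and Creb3l2.

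The upstream sequence of Serpinh1 is shown because it was the most abundant of these 6 genes and is a known target of the heat shock response. It is the 250 bases before the gene start, 5′ to 3′, from RefSeq, build GRCr8, with capitals for TTCNNGAA and GAANNTTC, the inverted repeats that build a heat shock element, which overlap here.
Serpinh1, chr1:163062977-163063226, minus strand: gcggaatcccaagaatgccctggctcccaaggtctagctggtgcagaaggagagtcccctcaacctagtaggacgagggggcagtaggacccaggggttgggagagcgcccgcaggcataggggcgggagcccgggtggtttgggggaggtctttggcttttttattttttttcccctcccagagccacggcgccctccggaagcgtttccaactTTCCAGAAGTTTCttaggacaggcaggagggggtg
The nearer of the 2 matches began 30 bases before the gene start. At least 1 match of TTCNNGAA occurred in 5.91% of the tested genes with a promoter and 7.48% of all promoters, and of GAANNTTC in 4.93% and 7.23%. Among the 11 collagen genes with a promoter, TTCNNGAA occurred in 2, Col5a1 and Col18a1, and GAANNTTC in 0.

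By library number 17 of the 30 synthesis genes were called, 12 lower and 5 higher in number 3, with a median of -0.25. Over all genes tested 58.4% were called, 21.2% as lower and 37.2% as higher, so the share of synthesis genes called was near that of all genes. Under each of the 3 scalings 26 synthesis genes were called, 21 lower and 5 higher, beside 60.4% to 61% of all genes, 30.7% to 35.3% as lower. It was 10 without ISB-P library 1, beside 41.1% of all genes, and 27 without PCL library 3, beside 73.7%. The 12 lower genes included Serpinh1 at -0.48, Pcolce, which enhances cleavage of the procollagen end, at -0.41, Bmp1, the protease that makes this cut, at -0.33, Lox, the main cross-linking oxidase, at -0.25, and Loxl1 at -0.71. The 5 higher genes were Plod2 at 1.07, Tmem38b, an ion channel of the endoplasmic reticulum, at 0.88, Fkbp14, a prolyl isomerase, at 0.67, P4ha1 at 0.62 and Tll1, a relative of Bmp1, at 0.58. P4ha1 and Plod2 thus had the opposite sign to the 11 called collagen genes. Sparc, a collagen-binding matrix protein, was at 2943 to 3162 FPKM on PCL and 3028 to 3044 FPKM on ISB-P and was not called by number (0.05). Sparc was at 4976 FPKM on TCP, above every film library, as were 17 of the 30 synthesis genes and 25.4% of all genes tested.

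Of 10 collagen receptor genes listed, 8 were found and 6 tested. Between the films 0 of 6 were called in limma, beside 1.72% of all genes called. In the same fit 0 of 6 had an unadjusted p under 0.05, beside 1145 of the 9467 genes tested. With the block Ddr2, a discoidin domain receptor for fibrillar collagen, was called higher on ISB-P, at 0.25 (limma adjusted p = 0.0396), the 1 call among the 6 beside 24.4% of all genes. It was at 73.2 FPKM on TCP, 62.6, 85.5 and 90.0 FPKM on PCL and 75.7, 92.9 and 115 FPKM on ISB-P, so the films overlapped. The call was lost without the number 1 libraries and without the number 2 libraries. In the fit without number 2, 1 of the 6 receptor genes was called higher on ISB-P, beside 12.5% of all genes. The Ddr2 call was also lost in each of the 3 fits that joined the block with another scaling, where 0 of 6 receptor genes were called higher. Of all genes, 7.54% to 11.5% were called higher in these fits. By number all 6 were called, 3 higher and 3 lower, beside 58.4% of all genes, 37.2% as higher and 21.2% as lower. Itgb1, the beta chain shared by the collagen-binding integrins, at 1.03, Itga1 at 0.57 and Ddr2 at 0.56 were higher in number 3. Mrc2, an endocytic collagen receptor, at -0.67, Ddr1 at -0.43 and Itga11 at -0.36 were lower. Under upper quartile scaling and with a common total 5 of the 6 were called, 2 higher and 3 lower, beside 60.9% and 60.4% of all genes. It was 4 without ISB-P library 1, beside 41.1%.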

How the data were processed

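Polyadenylated RNA of rMSCs was measured 4 h after seeding in 7 libraries (3 ISB-P, 3 PCL, 1 TCP; TruSeq Stranded mRNA, paired ends). The authors deposited 1 table per library of values for 17147 gene symbols, read here as FPKM: they are not whole numbers and their sums differ between libraries. The submitters' processing notes name bcl2fastq 2.20.0.422, cutadapt 1.18, TopHat2 2.0.13, Cuffdiff 2.2.1 and the rat build rn5, and the methods name ExDEGA. Depth is unknown, so no counting error is given. Values were used as deposited. The 9467 genes at 1 FPKM or higher in 3 or more film libraries were fitted with limma 3.58.1 in R 4.3.3 (trend, two-sided) on log2(FPKM + 1), a pseudocount of 1 that shrinks the fold change of low genes, with Benjamini-Hochberg adjustment and a threshold of 0.05. The film test used the 6 film libraries without a block. The number test added the library number beside the film. TCP entered no main test. Scripts were tested on simulated data.

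Members, lists, promoter letters and tests were chosen with earlier results of these data known. Named with values in every library were collagen genes whose mean reached 16 FPKM in a group or called in either test, and list genes called with the block. Other genes, such as Sparc, Pcolce, Bmp1 and Lox, were picked with their values in view. Alternatives tried were a block for the library number, TCP as another group in the film fit, no film term, a pseudocount of 0.1, no filter or at least 5 FPKM, upper quartile, quantile and common-total scaling, and each library left out. Deviations from the film mean correlated between same-numbered libraries at r = 0.887, 0.431 and 0.867, so these libraries resembled each other. The average of -0.356 between different numbers adds no support, since deviations from a film mean cancel out over the libraries of that film. The labels do not say that same-numbered libraries were paired. The block rests on their numbers and on this likeness. P3h1 to P3h4 were carried under older symbols (Lepre1, Leprel1, Leprel2 and Leprel4). All 27 collagen symbols were found in the RefSeq GRCr8 gene table, used here only for names and neighbours. Figures were drawn with matplotlib 3.10.9.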

Additional observations from a re-analysis of the deposited data

How the results depend on the processing

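The 0 collagen genes called between the films were 0 under every setting without the block and with the block alone, and 0 to 1 with the library number as a block and 1 number left out (1, Col5a3 higher, without replicate 3); with the block and a scaling they were 2, 2 and 5. For synthesis genes the replicate block gave 6, with the scalings 6, 9 and 10, and 3 to 11 with 1 number left out. For receptor genes the block gave 1, with the scalings 1, 1 and 2 (Ddr1 and Mrc2, lower), and 0 to 1 with 1 number left out. Over all genes the film count of 163 became 2307 with the block, 85 with at least 5 FPKM, 108 with upper quartile scaling, 20 to 113 with 1 library left out, and 2380, 2298 and 2827 with the block and a scaling, or 1773 to 3137 with the block and 1 number left out (2004 without number 2). Without a film term the number test called 0 collagen, 4 synthesis, 1 receptor and 1630 genes in all, against 11, 17, 6 and 5527. With 1 library left out it called 3 to 13 collagen and 10 to 27 synthesis genes, and 26 synthesis genes under each scaling. The collagen median between films was -0.13 under quantile normalization and -0.15 under a common total, with or without the block. The medians over all genes tested were -0.02 and -0.09 in the same order. With 1 library left out the collagen median was -0.17 to -0.00095. The share ratio of 0.881 ran from 0.784 to 0.981 with 1 library left out. The count over 2-fold from TCP, 3, was 6, 5 and 6 under the scalings and 1 to 5 with 1 library left out, and the matching all-gene counts were not taken. The pooled-spread count of 5 was 2, 3 and 4 under upper quartile, quantile and common-total scaling. In the same order 598, 562 and 621 of the 9467 genes tested were called lower on the films. With 1 library left out the count was 0 to 7. No called value changed sign. The cause was not tested. Every setting could be run.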
